A study of Mus musculus with 8 samples.

Results

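Glucocorticoid-responsive genes were examined in the livers of male mice on a high-fat diet (HFD). The 7 genes were *Sgk1*, *Tsc22d3*, *Fkbp5*, *Tat*, *Nr3c1*, *Klf9* and *Hsd11b1*, found by matching the identifiers of a raw count table of 18095 genes to the mouse annotation. All 7 had a row and passed the filter on low counts, as did 14866 genes in all. They were chosen from this same contrast between genotypes, with its results known, so their differences between genotypes are given as a description with no test. The study sequenced liver RNA of 4 HFD WT and 4 HFD Inpp4b-/- males at 12 weeks. In both groups the dams received the HFD before mating and through lactation and the male pups stayed on it, so no library came from a lean animal. The Inpp4b-/- genotype removes the lipid phosphatase INPP4B throughout the body, and the labels name no other allele. The labels give C57BL/6 as the strain background, whereas the methods describe breeding into FVB.

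The liver is a major target of the adrenal glucocorticoids, corticosterone in mice. The hormone circulates bound to a carrier protein, can be regenerated inside hepatocytes by the enzyme HSD11B1, and binds the glucocorticoid receptor, NR3C1, which the HSP90 chaperone machinery holds ready for ligand. The bound receptor enters the nucleus and acts at glucocorticoid response elements, inducing genes that include the kinase SGK1, the anti-inflammatory protein GILZ (*Tsc22d3*), the receptor cochaperone FKBP5, the transcription factor KLF9 and tyrosine aminotransferase (*Tat*). SGK1 is also activated through phosphoinositide 3-kinase and PDK1, in the pathway whose lipids INPP4B dephosphorylates.

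Promoter sequences of the members were read from RefSeq windows on GRCm38.p6, each running from 250 bases before to 50 bases after an annotated start, and are shown because the members share a receptor. Windows of 6 of the 7 genes were searched, 13 windows in all, with 6 for *Sgk1* and 3 for *Tsc22d3*, and *Nr3c1* was left out of the search. Both strands were searched for a full glucocorticoid response element (GRE, GNACA followed after 3 bases by TGTNC), its hexamer TGTTCT, the E-box CACGTG, the FOXO site GTAAACA and the cAMP response element (CRE) TGACGTCA. Only the window of *Sgk1* start 5, at chr10:21993640-21993939 on the plus strand, held the full element. It lay 188 to 176 bases before the start and overlapped 2 hexamers, and a further hexamer overlapped an E-box at the upstream end. The first 250 bases of that window follow, with all matches in capitals.
Sgk1 start 5: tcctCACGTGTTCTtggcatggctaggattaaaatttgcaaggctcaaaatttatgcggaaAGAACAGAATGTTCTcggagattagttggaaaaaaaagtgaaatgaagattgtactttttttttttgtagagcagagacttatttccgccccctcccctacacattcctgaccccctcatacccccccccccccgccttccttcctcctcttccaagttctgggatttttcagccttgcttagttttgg
The matches of the other members are shown with 10 bases on each side and the match in capitals, read on the strand of the gene. They are a hexamer 185 bases before *Tsc22d3* start 1 (chrX:140600692-140600717, minus strand), an E-box 169 bases before the *Fkbp5* start (chr17:28486303-28486328, minus strand), and FOXO sites 100 bases before the *Klf9* start (chr19:23141116-23141142, plus strand) and 138 bases before a *Hsd11b1* start (chr1:193242482-193242508, minus strand).
Tsc22d3 hexamer: gcattcgacaTGTTCTaagttctgag
Fkbp5 E-box: aagggccagaCACGTGggcagcggtg
Klf9 FOXO site: gggggagaaaGTAAACAgagttgaatc
Hsd11b1 FOXO site: atgaaatggaGTAAACAttgtccatta
Among all 32851 windows of the same length, 156 (0.475%) held the full element, 19.0% a hexamer, 7.15% the E-box, 3.65% the FOXO site and 1.79% the CRE. Hexamers also stood in the windows of *Sgk1* starts 1 and 4, so 4 of the 13 windows held one. The single *Tat* window held none of the 5 motifs and none of the 13 windows held a CRE. These matches describe letters in short windows and say nothing about whether the receptor was bound.

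**Figure D1:**
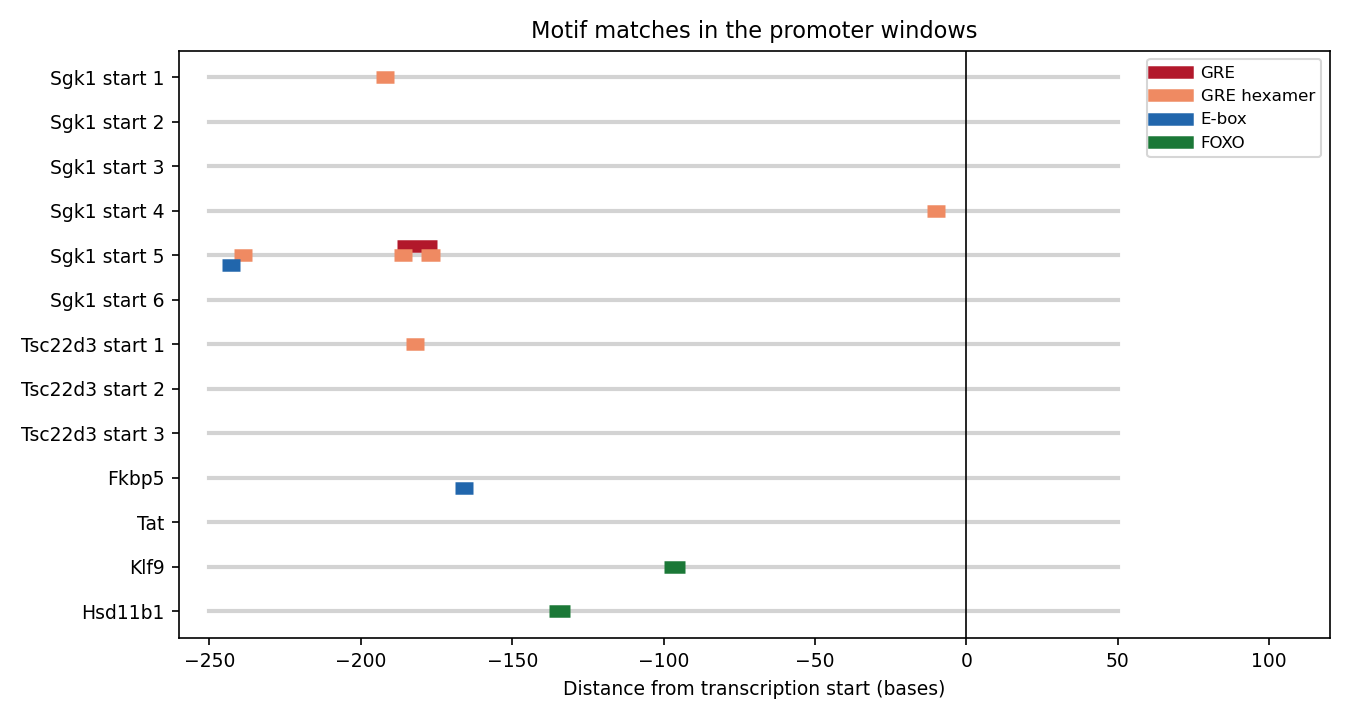
Motif matches in the 13 promoter windows of 6 members, by distance in bases from the annotated transcription start (0, vertical line). Grey lines are the searched windows, and the full GRE appears only at *Sgk1* start 5, 188 to 176 bases upstream.

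The targeted gene and the libraries were checked first. *Inpp4b* was counted 6, 20, 5 and 8 times in HFD WT replicates 1 to 4 and 33, 10, 9 and 14 times in the libraries labelled Inpp4b-/-, so its reads were not lower there and every direction below rests on the labels. Totals ran from 25893430 to 31427831 counts in HFD WT and from 32738435 to 36662531 in HFD Inpp4b-/-, without overlap, so depth and genotype cannot be told apart before normalization. Every HFD WT library also carries a later number in its sample title than any HFD Inpp4b-/- library. The order of these title numbers and genotype thus cannot be told apart. The 5 hepatocyte markers with a row summed to between 70725 and 75501 CPM (counts scaled to the normalized library size) in HFD WT. In HFD Inpp4b-/- replicates 1 to 4 the sums were 87658, 73787, 92088 and 78074 CPM, and only replicate 2 lay inside the HFD WT range. Sums of the other marker lists overlapped between genotypes for Kupffer cell, endothelial, stellate, cholangiocyte, lymphocyte, neutrophil and erythroid genes. Of the markers, 1 erythroid gene was called, and adipocyte markers were not analysed here. In edgeR's quasi-likelihood test with Benjamini-Hochberg adjustment, 174 of 14866 genes (1.17%) passed the thresholds of an adjusted p under 0.10 and a fold over 1.3, with 92 (0.619%) lower and 82 (0.552%) higher in HFD Inpp4b-/-. Genes past these thresholds are named as called here. With DESeq2, 688 of the 17016 genes given an adjusted p (4.04%) passed them. An unadjusted p under 0.05 was reached by 13.9% of all genes tested by edgeR and by 14.0% of those tested by DESeq2.

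Levels of the members were compared per kilobase of exon. *Tat* was the highest in HFD WT at 630 ± 365 CPM per kilobase (mean ± SD, n = 4), followed by *Hsd11b1* at 137 ± 12.0. Next came *Klf9* at 28.7 ± 6.29 and *Tsc22d3* at 23.1 ± 3.99, which lay within their spread of each other. *Fkbp5* at 14.0 ± 4.83 and *Nr3c1* at 10.6 ± 1.52 did as well. *Sgk1* was the lowest, at 3.45 ± 0.416. In HFD Inpp4b-/- the order kept *Tat* (298 ± 99.7), *Hsd11b1* (147 ± 8.70) and *Klf9* (29.7 ± 1.92) at the top and *Sgk1* (2.30 ± 0.169) at the bottom. Between them *Tsc22d3* (15.4 ± 3.74), *Nr3c1* (12.2 ± 0.267) and *Fkbp5* (10.1 ± 8.48) lay within the spread of *Fkbp5*.

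*Sgk1* (ENSMUSG00000019970, chr10:21882184-21999903 on GRCm38, plus strand), a kinase that promotes sodium transport and phosphorylates NEDD4L and FOXO proteins, was lower in HFD Inpp4b-/-. It stood at 18.7, 15.8, 14.6 and 18.5 CPM in HFD WT replicates 1 to 4. It stood at 12.1, 10.2, 11.8 and 11.1 CPM in HFD Inpp4b-/-. The lowest HFD WT library thus lay above the highest HFD Inpp4b-/- library, and the difference was -0.58 ± 0.12 on the log2 scale (edgeR estimate ± SE, n = 4 per genotype), a fold of 0.668. The values rested on 367 to 507 counts per library. Because the tissue was sequenced in bulk, fewer cells that express a gene and less RNA per cell cannot be told apart. *Sgk1* overlaps no other annotated gene.

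*Tsc22d3* (ENSMUSG00000031431, X chromosome), which encodes GILZ, a leucine zipper protein that restrains NF-kB and AP-1, had values close to those of *Sgk1* in size of difference but not in separation. Its levels were 125, 93.4, 96.4 and 85.8 CPM in HFD WT and 57.6, 50.1, 72.9 and 86.5 CPM in HFD Inpp4b-/-. HFD Inpp4b-/- replicate 4 exceeded HFD WT replicate 4, and no other pair crossed. The difference was -0.59 ± 0.18.

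*Tat* (ENSMUSG00000001670, chromosome 8), the first enzyme of tyrosine breakdown and a long-used readout of hepatic glucocorticoid action, had the largest difference of the members, -1.08 ± 0.38. Its levels were 2830, 1114, 1047 and 1068 CPM in HFD WT and 831, 362, 795 and 882 CPM in HFD Inpp4b-/-. The groups did not overlap, but HFD WT replicate 1 stood far above the other 3 and HFD Inpp4b-/- replicate 2 far below the others. Without HFD WT replicate 1 the difference was -0.58. The gene shares chromosome 8 with *Inpp4b*, and the effect of flanking sequence carried along with the deleted allele was not tested.

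*Fkbp5* (ENSMUSG00000024222, chromosome 17), the cochaperone that lowers the receptor's affinity for hormone and is itself induced by it, varied most within a genotype. It was at 199, 124, 110 and 96.7 CPM in HFD WT and at 14.2, 39.2, 163 and 166 CPM in HFD Inpp4b-/-. HFD Inpp4b-/- replicates 1 and 2 lay below all HFD WT libraries, whereas replicates 3 and 4 lay above 3 of the 4. In the sample titles, replicates 1 and 2 carry adjacent numbers, and replicates 3 and 4 carry later ones. What these title numbers stand for is not stated, and their part in the split was not tested. The highest HFD Inpp4b-/- library was 11.7 times the lowest, against 2.06 times in HFD WT. The difference between genotypes, -0.47 ± 0.63, was smaller than its error, and it ran from -0.87 without HFD Inpp4b-/- replicate 4 to -0.11 without HFD Inpp4b-/- replicate 1. An annotated antisense gene overlaps *Fkbp5* and has its own row. The strand setting of the counting is not given in the sources used here, so reads of the pair may be mixed.

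*Nr3c1*, *Klf9* and *Hsd11b1* differed little. The receptor gene *Nr3c1* (ENSMUSG00000024431, chromosome 18) was at 76.9, 94.1, 86.6 and 67.2 CPM in HFD WT and at 95.7, 94.3, 94.5 and 90.9 CPM in HFD Inpp4b-/-, with a difference of 0.21 ± 0.11. The 4 HFD Inpp4b-/- libraries sat within a coefficient of variation of 2.18%, against 14.4% in HFD WT, and the groups overlapped. *Klf9* (ENSMUSG00000033863, chromosome 19), a zinc finger factor of the receptor's early response, was at 162, 102, 125 and 164 CPM in HFD WT and at 141, 151, 150 and 131 CPM in HFD Inpp4b-/-. All of the latter fell inside the HFD WT range, and the difference was 0.05 ± 0.15. *Hsd11b1* (ENSMUSG00000016194, chromosome 1), the enzyme that regenerates active hormone, was at 535, 615, 544 and 638 CPM in HFD WT and at 662, 639, 622 and 575 CPM in HFD Inpp4b-/-. The groups overlapped, with a difference of 0.10 ± 0.09. Overlapping genes on both strands of *Hsd11b1* have rows of their own, which leaves its counts uncertain to that extent.

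**Figure D2:**
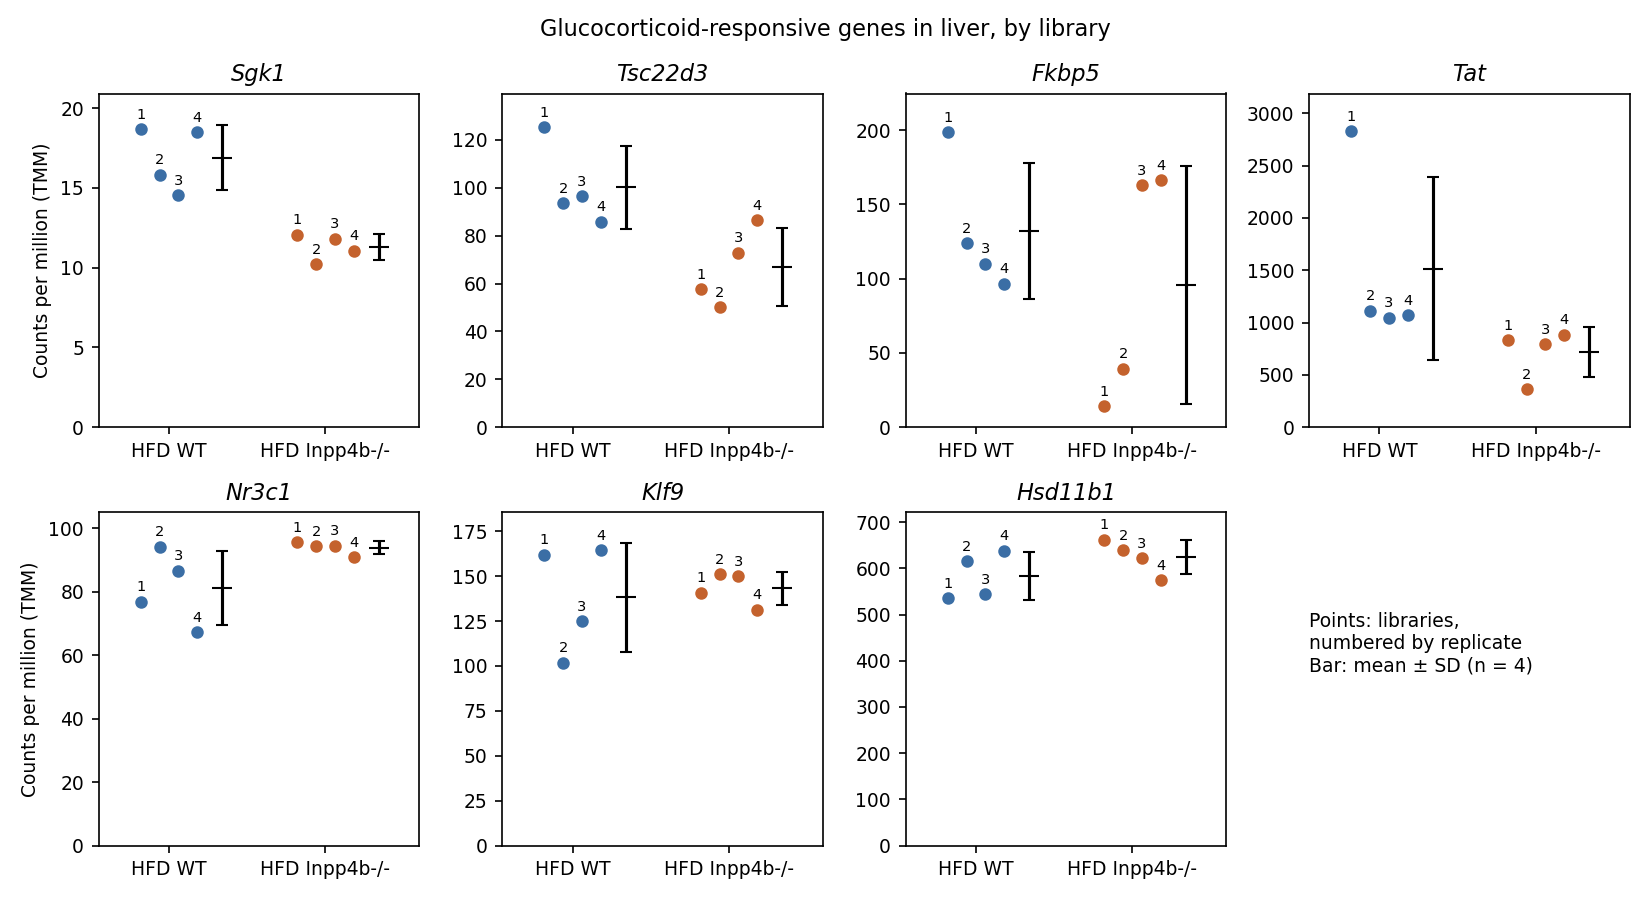
TMM-normalized CPM of the 7 members in each library (points, numbered by replicate), with mean ± SD of 4 libraries beside them. *Sgk1* and *Tat* show no overlap between genotypes, and *Fkbp5* splits the HFD Inpp4b-/- libraries into 14.2 and 39.2 against 163 and 166 CPM.

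Of the 7 members, 1 (*Sgk1*) was called, beside 1.17% of all tested genes, and 2 (*Sgk1* and *Tat*) had groups that did not overlap, beside 8.72% of all tested genes. Both counts come from the contrast that chose the members and nothing is read from them. As a description of the fits, *Sgk1* was also past the thresholds without HFD WT replicate 2 or 3 and not past them without any one of the other 6 libraries, where its log2 difference lay between -0.61 and -0.53. The members' median log2 difference was -0.47, against 0.003 over all tested genes, and ran from -0.60 to -0.11 when 1 library was omitted (-0.11 without HFD Inpp4b-/- replicate 1).

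Variation among mice of one genotype leaves out the difference that chose the members, though the same libraries enter both. Each member's log2 CPM was set against its genotype mean, and the 21 pairs of members were correlated over the 8 libraries with a two-sided exact permutation test of libraries within genotype, all arrangements enumerated. The test takes libraries of one genotype as exchangeable, which was not checked against the numbers in the sample titles. None of the 21 pairs passed an adjusted p of 0.10. The pairs nearest to it were *Tsc22d3* with *Tat* (r = 0.81, rho = 0.74, exact permutation p = 0.0226, adjusted p = 0.237) and *Tsc22d3* with *Hsd11b1* (r = -0.77, rho = -0.81, exact permutation p = 0.0139, adjusted p = 0.237). Without the 2 libraries farthest from the median of *Tsc22d3*, r was 0.71 and -0.43. *Tsc22d3* with *Fkbp5* gave r = 0.77 and rho = 0.88 (exact permutation p = 0.0868, adjusted p = 0.456) and 0.68 without those libraries. *Fkbp5* with *Hsd11b1* gave r = -0.60 and rho = -0.69 (exact permutation p = 0.0451, adjusted p = 0.316), and -0.43 without the 2 libraries farthest from the median of *Fkbp5*. Without the same 2 libraries, *Fkbp5* with *Tat* rose from r = 0.35 to 0.87. Leaving out HFD Inpp4b-/- replicate 1 gave r = 0.94 for *Tsc22d3* with *Fkbp5*, 0.93 for *Tsc22d3* with *Tat* and 0.88 for *Fkbp5* with *Tat* (exact permutation test, adjusted p = 0.182 each). *Sgk1* had r between -0.63 (*Nr3c1*) and 0.66 (*Tat*) with the other members. With *Klf9* it had r = 0.62, and 0.95 without the 2 libraries farthest from the median of *Sgk1*. The receptor gene *Nr3c1* had r = -0.86 with *Klf9* (rho = -0.76, exact permutation p = 0.141, adjusted p = 0.492, and r = -0.62 without the 2 farthest libraries). Deviations of *Nr3c1* ran from -0.26 to 0.22 in HFD WT but only from -0.05 to 0.03 in HFD Inpp4b-/-. Its r values thus rest mainly on the HFD WT libraries.

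**Figure D3:**
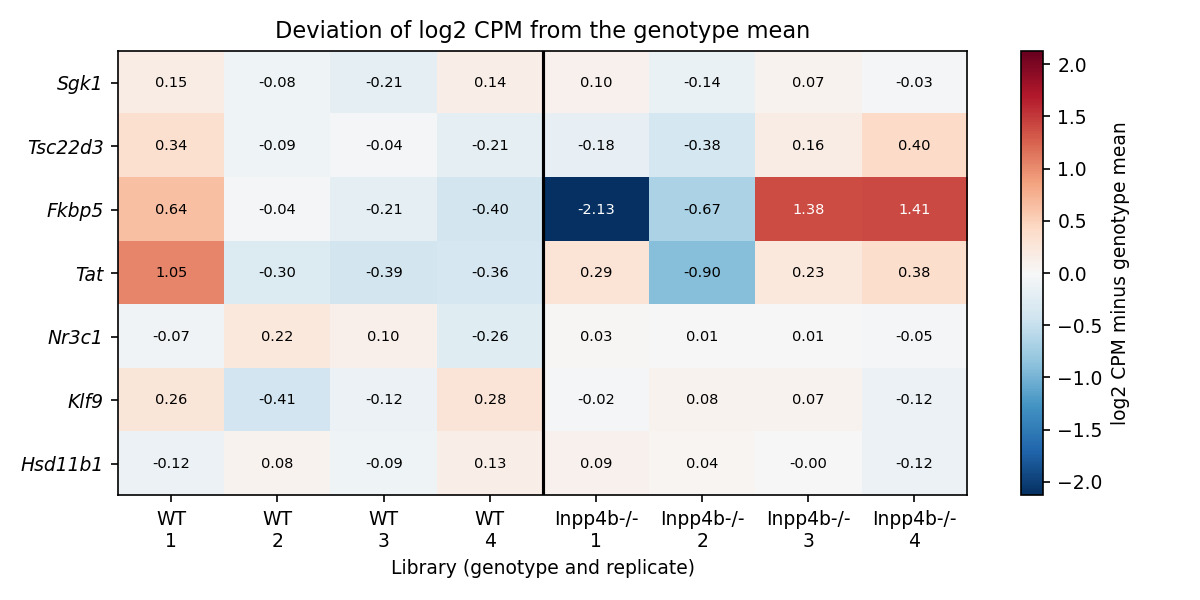
Deviation of each member's log2 CPM from the mean of its genotype, by library (columns) and gene (rows), red above and blue below the mean. *Fkbp5* spans from -2.13 to 1.41 within HFD Inpp4b-/-, and *Tat* reaches 1.05 in HFD WT replicate 1, where *Tsc22d3* and *Fkbp5* are also at their HFD WT maximum.

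The genes most like each member in these deviations were ranked among the 11693 tested genes whose counts averaged 50 or more, as a description over 8 libraries that share their genotype means. Nearest to *Sgk1* were *Rel*, an NF-kB subunit (r = 0.97), *Zfp87* (0.96), *Prkar1a*, a regulatory subunit of protein kinase A (0.96), *Cebpd*, a C/EBP transcription factor (0.95), and *Sdc4*, a cell surface proteoglycan (0.95). Nearest to *Tsc22d3* were *Lad1* (r = 0.98), *Fam213a* (0.98) and *Ssbp4* (0.97). Nearest to *Fkbp5* were the interferon regulatory factor *Irf2* (r = 0.99), *Gm826* (0.98) and the growth factor gene *Igf1* (0.97). Nearest to *Tat* were *Rprd1a* (r = 0.97), *Fndc3b* (0.96) and *Clca3a1* (0.94). Near to *Nr3c1* were the beta-catenin gene *Ctnnb1* (r = 0.98) and *Btbd2* (0.98), values that rest mainly on the HFD WT libraries. Nearest to *Klf9* were *Ube2f*, *Cct3* and *Rnf185* (r = 0.98 each), and nearest to *Hsd11b1* were *Bin2* (r = 0.98), *Wls* (0.97) and the sterol transporter gene *Abcg1* (0.97). No member stood among the first 10 for another member.

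Corticosteroid metabolism and transport held 12 tested genes. Their liver RNA does not measure the supply of hormone to the receptor, and no corticosterone level is part of these data. EdgeR called 1 higher and 1 lower (1.17% of all tested genes were called), and DESeq2 called the same 2 (4.04% of all genes). With each tool 4 had an unadjusted p under 0.05 (13.9% and 14.0% of all genes did). *Serpina6* (ENSMUSG00000060807, chromosome 12) encodes corticosteroid-binding globulin, the plasma carrier that the liver secretes. It stood at 197, 266, 214 and 183 CPM in HFD WT and at 364, 392, 352 and 425 CPM in HFD Inpp4b-/-. Every HFD Inpp4b-/- library exceeded every HFD WT library, and the rise was 0.84 ± 0.13 on the log2 scale, or 1.79-fold (adjusted p = 0.0237, edgeR). *Abcb1b* (ENSMUSG00000028970, chromosome 5), an efflux pump that exports steroids among other substrates, was at 1.59, 0.724, 1.18 and 1.77 CPM in HFD WT and at 0.305, 0.315, 0.418 and 0.281 CPM in HFD Inpp4b-/-. It fell by 1.98 on the log2 scale (SE 0.39, adjusted p = 0.0669, edgeR) on only 10 to 46 counts per library. The call of *Serpina6* was kept without any one library. That of *Abcb1b* was kept only without HFD WT replicate 2, with adjusted p between 0.119 and 0.206 without any other library. *Cyp3a11* had a log2 difference of -1.76 ± 0.77 (adjusted p = 0.350) and *Cyp3a13* of 0.90 ± 0.34 (adjusted p = 0.281), both steroid-hydroxylating cytochromes and neither called. *Cyp3a11* was at -0.87 without HFD WT replicate 2, and *Cyp3a13* at 0.54 without HFD Inpp4b-/- replicate 3. *Abcb1b* and both cytochromes have close paralogs, so their counts are uncertain where reads could be shared. The median of the list was -0.14, or 0.13 without HFD WT replicate 2, and 7 of the 12 were negative.

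The receptor's chaperones and coregulators held 22 tested genes, of which 1 was called by edgeR, lower (1.17% of all tested genes were called). DESeq2 called 3 (*Hsp90aa1*, *Hspa8* and *Stip1*; 4.04% of all genes). With each tool 6 had an unadjusted p under 0.05 (13.9% and 14.0% of all genes did). *Hsp90aa1* (ENSMUSG00000021270, chromosome 12), the stress-inducible HSP90 that folds the ligand-binding domain, was at 425, 388, 361 and 603 CPM in HFD WT and at 254, 295, 229 and 224 CPM in HFD Inpp4b-/-. The groups did not overlap, and it fell by 0.83 (SE 0.17, adjusted p = 0.0782, edgeR). Its call was kept without HFD WT replicate 2, 3 or 4 and lost without any other library (adjusted p 0.128 to 0.206). The chaperone *Hspa8* had the largest negative value of the list at -1.03 ± 0.31 (adjusted p = 0.201, edgeR). At the other end stood *Nr3c2*, the mineralocorticoid receptor gene, at 0.30 ± 0.33 (adjusted p = 0.725), and the coactivator gene *Crebbp*, at 0.04 ± 0.10 (adjusted p = 0.900). Of the 22 genes, 18 were negative, with a median of -0.14 against 0.003 over all tested genes.

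**Figure D4:**
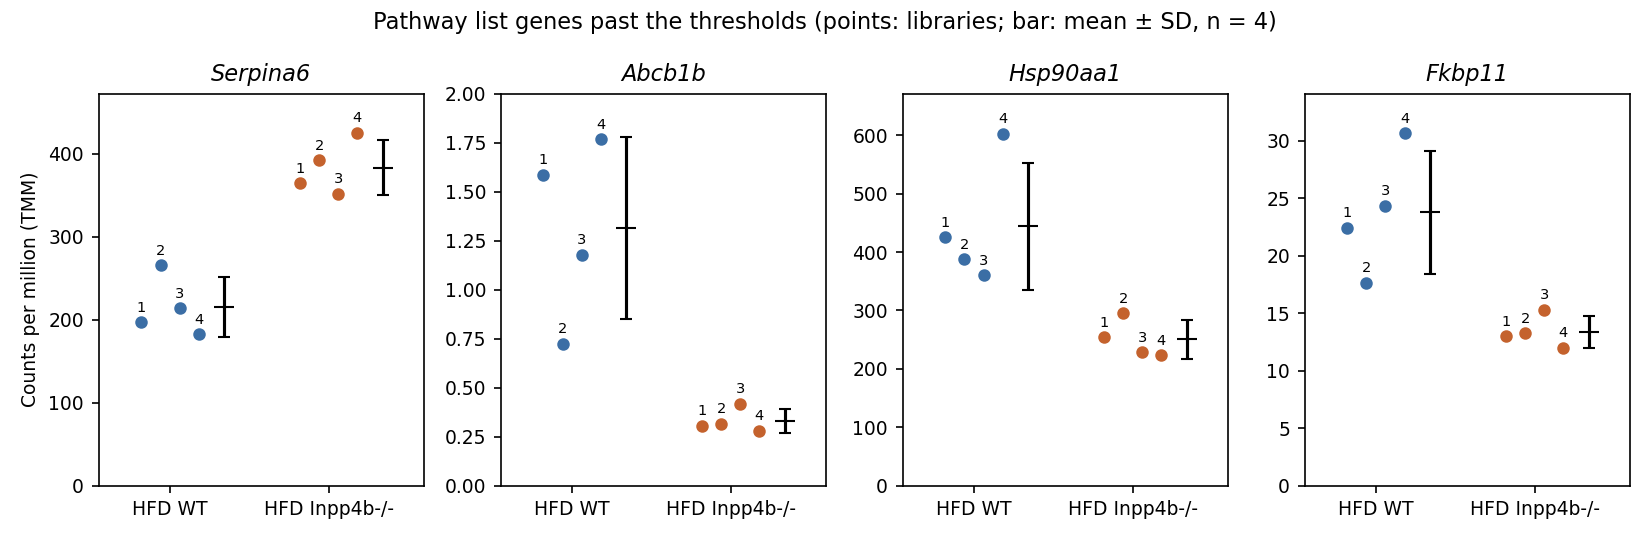
TMM-normalized CPM of the 4 called genes of the pathway lists in each library (points, numbered by replicate), with mean ± SD of 4 libraries. *Serpina6* is higher in all 4 HFD Inpp4b-/- libraries, and *Abcb1b*, *Hsp90aa1* and *Fkbp11* are lower, with no overlap in any of the 4 genes.

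None of 29 further glucocorticoid targets with a row (of 30 listed) was called by edgeR, 7 had an unadjusted p under 0.05 (13.9% of all tested genes did), and DESeq2 called 4 (*Per1*, *Cebpd*, *Nfkbia* and *Igfbp1*; 4.04% of all genes). Their median log2 difference was -0.33, or -0.12 without HFD WT replicate 1, and 21 of 29 were negative. *Mt1*, a metallothionein gene, was at 427, 22.6, 7.55 and 117 CPM in HFD WT and at 9.71, 8.07, 29.7 and 28.2 CPM in HFD Inpp4b-/- (-2.92 ± 1.06, adjusted p = 0.266, and -1.38 without HFD WT replicate 1). *Igfbp1*, a carrier of insulin-like growth factors, was at 41.6, 5.76, 8.99 and 54.0 CPM in HFD WT and at 4.97, 3.13, 7.14 and 3.37 CPM in HFD Inpp4b-/- (-2.57 ± 0.67, adjusted p = 0.151). In both genes HFD WT replicates 1 and 4 stood above all others. *Mt1* lies on chromosome 8 (chr8:94179082-94180327), between *Inpp4b* (chr8:81342556-82127914) and *Tat*. The effect of flanking sequence carried with the deleted allele was not tested for *Mt1* or for any other list gene on that chromosome. *Anxa1* (0.48 ± 0.24, adjusted p = 0.407) and *Pdk4* (0.41 ± 0.30, adjusted p = 0.589) had the largest positive values.

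The pattern of *Mt1* and *Igfbp1* was counted across the lists after their values had been seen. HFD WT replicates 1 and 4 held the 2 highest values in 15 of 29 glucocorticoid targets and in 6 of 10 immediate early genes, against 1256 of 14866 tested genes (8.45%). The same held in 7 of 22 chaperones and coregulators, *Hsp90aa1* among them, and in 2 of 12 genes of corticosteroid metabolism. It held in 2 of 21 genes around SGK1, 3 of 23 relatives, 1 of 15 clock genes and 0 of 12 tyrosine and aromatic amino acid genes. Among the members this was so in 2 of 7, *Sgk1* and *Klf9*. In the same 2 libraries the summed neutrophil markers were 3.36 and 4.49 CPM, against 0.202 to 1.73 in the other 6. Of the 3 listed neutrophil markers 2 have a row, neither called. In no other marker list with rows did these libraries hold the 2 highest sums. Kupffer cell sums were 43.3 and 125 CPM and erythroid sums 114 and 431 CPM, the lowest and highest of HFD WT. The part of neutrophils in the result was not tested. The immediate early genes *Fos* (-2.15 ± 0.97, adjusted p = 0.359) and *Junb* (-1.67 ± 0.65, adjusted p = 0.294), which respond quickly to growth and stress signals, were at 14.2 and 204 CPM in HFD WT replicate 4. They were at no more than 1.66 and 56.1 CPM in any other. *Junb* had a log2 difference of -0.48 without that library. *Myc* (1.87 ± 0.55, adjusted p = 0.187) and *Ier2* (0.60 ± 0.15, adjusted p = 0.141) were the largest positive values of that list, whose median was -0.86. *Myc* stood at 1.13 without HFD Inpp4b-/- replicate 1. None of its 10 tested genes was called by edgeR, 5 had an unadjusted p under 0.05 (13.9% of all tested genes did), and DESeq2 called *Ier2* and *Myc* (4.04% of all genes). Without HFD WT replicate 4 the median was -0.11 and *Fos* stood at 0.042.

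**Figure D5:**
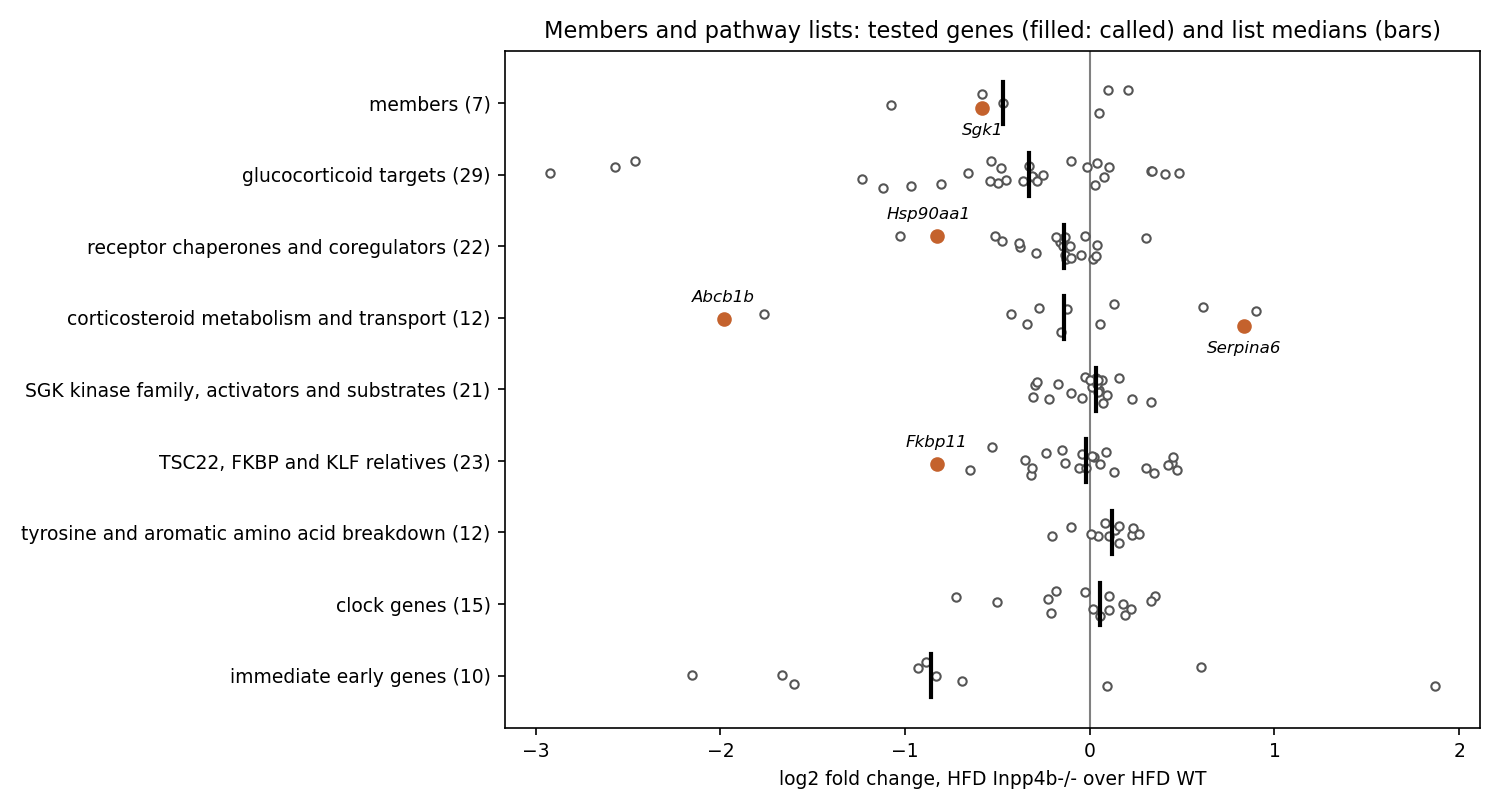
Log2 fold change of HFD Inpp4b-/- over HFD WT for every tested gene of the members and the 8 pathway lists (points, number tested in brackets), with called genes filled and list medians as bars; the grey line is the median of all tested genes, 0.003. Glucocorticoid targets (median -0.33) and immediate early genes (-0.86) spread furthest to the left, and 1 member and 4 list genes are called.

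Around SGK1 itself, the 21 tested genes of its kinase family, activators and substrates had a median of 0.03, and 13 were positive. None was called by edgeR or by DESeq2, and 1 had an unadjusted p under 0.05 with each tool (13.9% and 14.0% of all genes did). *Pdpk1*, which encodes the activating kinase PDK1, had a log2 difference of -0.31 ± 0.13 (adjusted p = 0.314). *Nedd4l*, the ubiquitin ligase that SGK1 phosphorylates, had -0.30 ± 0.16 (adjusted p = 0.458). The kinase paralog *Sgk2* had 0.33 ± 0.22 (adjusted p = 0.553).

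Relatives of *Tsc22d3*, *Fkbp5* and *Klf9* numbered 23 tested genes of 24 listed, with a median of -0.02. EdgeR called 1, lower (1.17% of all tested genes were called), and DESeq2 called 2 (*Fkbp11* and *Klf3*; 4.04% of all genes). An unadjusted p under 0.05 was reached by 3 with edgeR and 4 with DESeq2 (13.9% and 14.0% of all genes did). *Fkbp11* (ENSMUSG00000003355, chromosome 15), a prolyl isomerase of the endoplasmic reticulum, was at 22.4, 17.7, 24.4 and 30.6 CPM in HFD WT and at 13.0, 13.2, 15.3 and 12.0 CPM in HFD Inpp4b-/-. The groups did not overlap, and it fell by 0.83 (SE 0.16, adjusted p = 0.0669, edgeR). Its call was kept without HFD WT replicate 2 or 4 and lost without any other library (adjusted p 0.123 to 0.197). In the edgeR fit *Klf3* had -0.65 ± 0.16 (adjusted p = 0.131), *Fkbp10* 0.47 ± 0.31 (adjusted p = 0.530) and *Klf12* 0.45 ± 0.20 (adjusted p = 0.360).

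The other enzymes of tyrosine and aromatic amino acid breakdown had smaller values than *Tat*. Their 12 tested genes had a median of 0.12 and 10 were positive. None was called by edgeR or by DESeq2, and 1 had an unadjusted p under 0.05 with each tool (13.9% and 14.0% of all genes did). *Afmid* had a log2 difference of -0.10 ± 0.27 (adjusted p = 0.902) and *Haao* of 0.24 ± 0.12 (adjusted p = 0.419). The cofactor-recycling gene *Pcbd1* had the largest positive value, 0.27 ± 0.08 (adjusted p = 0.208). Clock genes, whose daily rhythm moves with corticosterone, had a median of 0.06 in 15 tested genes of 16 listed. None was called by edgeR or by DESeq2, with unadjusted p under 0.05 in 1 gene by edgeR and in 2 by DESeq2, beside the same 13.9% and 14.0%. *Nfil3* had the largest negative value (-0.72 ± 0.39, adjusted p = 0.442), then *Cry1* (-0.50 ± 0.25, adjusted p = 0.405). *Dbp* (0.35 ± 0.13, adjusted p = 0.268) and *Nr1d1* (0.33 ± 0.42, adjusted p = 0.769) had the largest positive ones.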

How the data were processed

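Liver RNA of 4 HFD WT and 4 HFD Inpp4b-/- males was sequenced as 150-bp paired-end reads after removal of ribosomal RNA. The authors aligned the reads to GRCm38 with HISAT2, counted them per gene with HTSeq and deposited raw counts of the 18095 genes that had reads in every library of WT, of Inpp4b-/- or of both. They also deposited a normalized signal, each count divided by a factor of its library, which was not tested. Symbols came from GENCODE M21. The quasi-likelihood test of edgeR 4.0.16 was run without covariates after TMM scaling and filterByExpr. The SE printed with each edgeR log2 difference was derived from that test. It is the size of the difference divided by the square root of the F statistic. The study's thresholds were used on the HISAT2 counts alone, whereas the study also aligned with STAR and kept genes that passed with both aligners. Log2 CPM used a prior count of 2. Alternatives were DESeq2 1.42.0, other scalings and filters, a block by replicate number and the omission of 1 library at a time. Same-numbered libraries did not deviate together, so the numbers were not taken as pairs. The procedure was tested on simulated data. Members and lists were chosen with earlier results of these data known. Named genes were all members, the called list genes, the 2 largest rises and falls of each list, and the genes most like each member. Some genes that this rule selects are not reported here. *Per1*, *Nfkbia* and the single genes counted by DESeq2 were named after their values were seen. Each member had at least 367 counts per library, and the parts of counting noise and of spread between mice in the precision were not tested. R 4.3.3, Python 3.11.15 and scipy 1.17.1 were used.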

Additional observations from a re-analysis of the deposited data

Results flagged for a closer look

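The libraries of each genotype were examined for a value far from the other 3 in the 7 members and the 32 named genes of the lists. In 78 groups of 4, 4 values passed Dixon's 95% limit for the gap to the nearest library over the range, and chance flags about 1 in 20 groups, 3.9 here. *Tat* stood at 2830 CPM in HFD WT replicate 1, with the next library at 1114 CPM. *Tat* also stood at 362 CPM in HFD Inpp4b-/- replicate 2, with the next at 795 CPM. *Fos* stood at 14.2 CPM in HFD WT replicate 4, with the next at 1.66 CPM. *Dbp* stood at 140 CPM in HFD WT replicate 3, with the next at 110 CPM.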

How the results depend on the processing

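The number of called genes was 174 in the main test, 688 with DESeq2 and 53 to 345 when one library was left out. The members called were 1, 2 with DESeq2 (*Sgk1* and *Tsc22d3*) and 0 to 1 without one library. The list genes called were 4, 13 with DESeq2 and 1 to 7 without one library. Other normalizations and filters kept all 3 counts within 1.5 times. With the replicate number as a block, the counts were 26, 0 and 0, and *Serpina6* had an adjusted p of 0.140 (edgeR). Same-numbered libraries had deviations correlated at -0.17 to -0.01, and other pairs at -0.03 to 0.14, so the numbers gave no pairing. Log2 differences of the 7 members moved by less than 1 SD between libraries in all 14 alternatives. Leaving out 1 of 4 libraries can hardly move a mean that far, so this measure cannot show stability. Over these omissions *Fkbp5* ran from -0.87 to -0.11 and *Tat* from -1.22 to -0.58. *Nr3c1* ran from 0.13 to 0.28 and *Hsd11b1* from 0.06 to 0.14, and *Klf9* changed sign, to -0.08, without HFD WT replicate 2. When one library was left out, log2 differences near 0 turned in sign for *Afmid* (-0.27 to 0.16, positive on leaving out replicate 2 of either genotype) and *Crebbp* (-0.021 to 0.10, negative on leaving out WT 4 or Inpp4b-/- 1). *Fos* ranged from -2.53 to 0.042, positive without HFD WT replicate 4. Of the 32 list genes that the naming rule selects, 17 log2 differences moved by over 1.5 times without some 1 library, none of them called. With the block, *Fkbp5* was at -0.92, and the median of corticosteroid metabolism and transport at 0.059. No scaling moved the median of all genes by more than 0.03. The 21 pairs of members gave 0 past the threshold in all 11 alternatives. The causes of these shifts were not tested, except that leaving out a library leaves fewer samples.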
